A study of Homo sapiens with 8 samples.

Results

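A549 cells, a human lung adenocarcinoma line, were transfected with 40 pmol of siRNA against YWHAG or with 40 pmol of a scramble siRNA, and their RNA was sequenced. The comparison takes 2 knockdown and 2 scramble libraries, chosen by their labels, which are 4 of the 8 libraries in the series. The other 4 received 25 pmol of an LNA gapmer, a DNA-based oligonucleotide whose pairing leads to RNase H cutting of the paired RNA, either scramble or against the antisense RNA LY6K-AS, and enter here only where named. All cells were transfected with RNAiMAX and carried no other alteration named in the labels. Whether the titles si1 and si2 of the knockdown libraries stand for 2 different siRNAs or for 2 repeats is not stated, and they are called knockdown libraries 1 and 2 here. Separate cultures are not stated for the libraries of a group either, so the tests rest on a spread that may be technical.

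YWHAG encodes 14-3-3 gamma. The 14-3-3 proteins are small dimeric adaptors that bind phosphorylated serine or threonine on client proteins and so hold them in the cytoplasm, mask sites on them or keep them inactive. Among the known clients are the RAF kinases, the CDC25 phosphatases that trigger entry into mitosis, the FOXO transcription factors and the coactivator YAP. A knockdown acts on the YWHAG transcript, whereas most of the known action of 14-3-3 proteins on clients lies at the protein level, which was not measured here.

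The values were RPKM, that is reads per kilobase of exon and per M (1e6) reads. Each of the 4 libraries was scaled by 33.7 to 34.6 M reads, and 3 reads corresponded to 0.0868 to 0.0889 reads per M. Of 66206 identifiers in the table, 13903 reached 0.5 RPKM in 2 or more of the 4 libraries and were tested. Transcripts of the mitochondrial genome took 18.3% and 21.8% of reads in scramble columns 2 and 3 and 16.9% and 21.7% in knockdown libraries 1 and 2, so the groups overlapped. The epithelial keratin KRT8 stood between 305 and 422 RPKM in the 4 libraries and KRT18 between 387 and 558 RPKM, whereas 2 of 12 immune, 1 of 10 fibroblast and 0 of 8 endothelial markers reached the level for testing. The leukocyte markers CD3E and CD3D were at 0 in all 4 libraries, and PTPRC and the fibroblast marker DCN stayed at or under 0.00354 RPKM. The 2 immune markers tested, CD14 and ITGAM, summed to 3.08 and 3.76 RPKM in the scramble and to 2.00 and 0.775 RPKM in the knockdown libraries, and COL1A1, the fibroblast marker tested, was at 2.08 and 2.26 RPKM against 1.41 and 0.709 RPKM. Their part in the results was not tested. In bulk RNA, fewer cells of a kind and less RNA per cell cannot be told apart.

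The targeted transcript was lower in both knockdown libraries. YWHAG (ENSG00000170027.6, GRCh38 chromosome 7, 76326794 to 76359031, minus strand) stood at 163 and 158 RPKM in the scramble libraries, at 13.5 RPKM in knockdown library 1 and at 4.91 RPKM in knockdown library 2. These were 8.45% and 3.06% of the scramble mean, from 21049 and 20358 scramble reads against 1753 and 621 knockdown reads. The groups were far apart, and the 2 knockdown libraries also differed from each other: the level in library 1 was 2.76 times that in library 2, with a 95% counting interval of 2.51 to 3.02. On the log2(RPKM + 1) scale the change was −4.12 ± 0.43 (SE, n = 2 per group), with a limma adjusted p of 0.130, the smallest adjusted p that any gene reached and 1 shared by other genes named below. The interval covers counting error only, with 1 library on each side, and may be too narrow, since reads are not independent molecules.

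Of the other 6 genes of the family, SFN was lower in both knockdown libraries, YWHAQ and YWHAZ were lower mainly in library 1, YWHAH was lower in library 2, and YWHAE and YWHAB stood near the scramble level in at least 1 library. SFN, which encodes 14-3-3 sigma, a p53 target in epithelial cells, stood at 86.1 and 93.7 RPKM in the scramble libraries and at 50.7 and 58.9 RPKM in the knockdown libraries (log2 change −0.71 ± 0.14, limma adjusted p = 0.198). YWHAQ, which encodes 14-3-3 theta and had the highest scramble level of the family, stood at 255 and 263 RPKM against 129 and 208 RPKM. YWHAZ, which encodes 14-3-3 zeta, stood at 117 and 114 RPKM against 72.6 and 107 RPKM, so the groups did not overlap for these 3 genes but library 2 lay close to the controls for YWHAZ. YWHAH stood at 63.7 and 60.1 RPKM against 63.7 and 44.7 RPKM, YWHAE at 131 and 109 RPKM against 96.3 and 118 RPKM, and the groups overlapped for both. YWHAB was at 59.7 and 61.9 RPKM in the scramble and at 59.0 and 58.8 RPKM in the knockdown libraries, a log2 change of −0.05 ± 0.12 whose sign turned with another scaling of the libraries. In the scramble libraries the order of levels was YWHAQ, YWHAG, YWHAE, YWHAZ, SFN, YWHAH and YWHAB, in which YWHAE and YWHAZ overlapped, as did YWHAH and YWHAB.

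**Figure D1:**
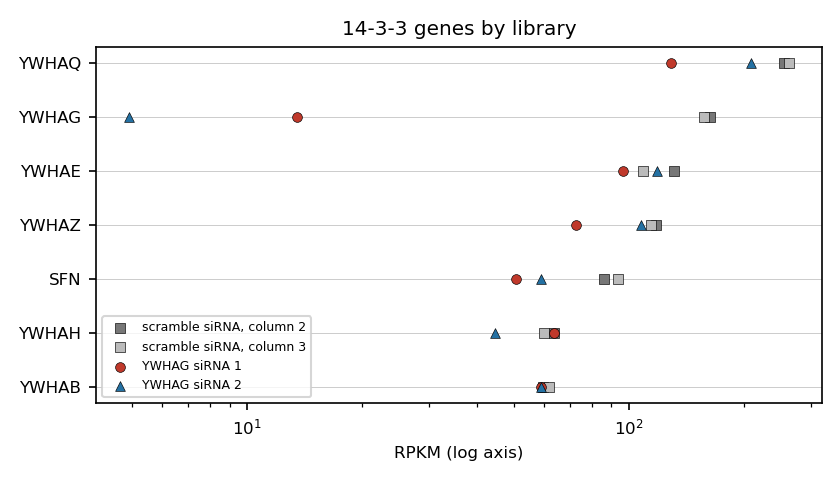
RPKM (log axis) of the 7 genes of the 14-3-3 family in the 2 scramble siRNA libraries (grey squares) and in knockdown libraries 1 (red circles) and 2 (blue triangles). YWHAG is apart at 13.5 and 4.91 RPKM, SFN is lower in both knockdown libraries, and YWHAB lies between 58.8 and 61.9 RPKM in all 4.

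No gene passed an adjusted p of 0.05 across the transcriptome (0 of 13903, or 0%, in limma with 2 residual degrees of freedom, and 0 of 11758 with limma voom on whole reads, which had 1942 at an unadjusted p under 0.05). At an unadjusted p under 0.05 there were 1044 genes higher (7.51%) and 1237 lower (8.9%), so 45.8% of these were higher. That split moved to 58.8% higher with median-ratio scaling and to 57.2% with the GC trend of each library removed. Over all genes tested the median log2 change was −0.05, and 42.4% were higher. The knockdown libraries differed more from each other than the scramble libraries did: the SD of the log2 difference over genes was 0.434 between the knockdown libraries and 0.195 between the scramble libraries. A difference of at least 1.5-fold separated the knockdown libraries in 1936 genes (13.9%) and the scramble libraries in 215 genes (1.55%). For this reason the 2 knockdown libraries are described one by one, each as its log2(RPKM + 1) minus the mean of both scramble libraries, which the 2 differences share.

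A gene was placed in a both-libraries class when the 2 differences were at least 1.5-fold in the same direction. It was placed in a 1-library class when that library differed by at least 1.5-fold and lay beyond both controls while the other stayed within 0.2 (log2) of the control mean, and in an opposite class when both differed by at least 1.5-fold in opposite directions. By this rule 229 genes were higher in both (1.65% of genes tested) and 193 were lower in both (1.39%). With median-ratio scaling these counts were 287 and 138, and with the GC trend removed they were 279 and 132. In library 1 alone 250 genes were higher (1.8%) and 276 lower (1.99%), and in library 2 alone 109 were higher (0.784%) and 215 lower (1.55%). Another 42 genes were higher in library 1 and lower in library 2 (0.302%), and 14 were lower in library 1 and higher in library 2 (0.101%). Both knockdown libraries lay above both controls, by any margin, in 2833 genes (20.4%) and below both in 4282 genes (30.8%). At the edge of the rule, TMTC3 with differences of 0.73 and 0.59 and SERTAD2 with −0.68 and −0.59 fell just inside. CANX (0.64 and 0.58) and C7orf26 (−0.61 and −0.58) fell just outside.

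**Figure D2:**
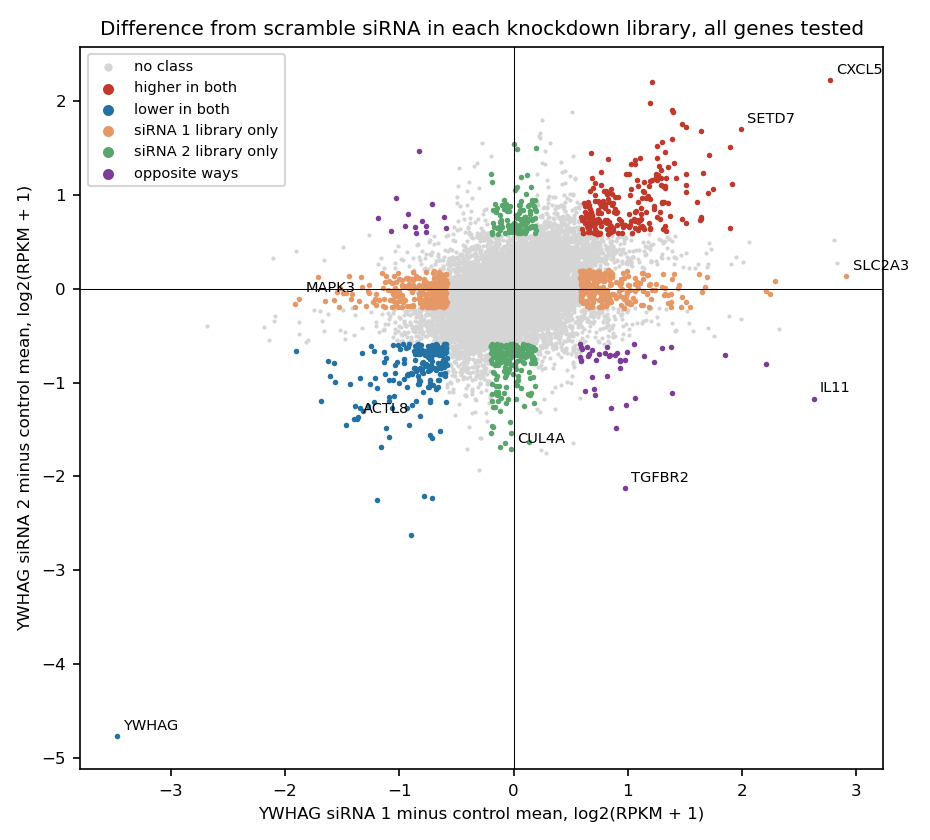
Each point is 1 of 13903 genes, with its difference from the scramble mean in knockdown library 1 (x axis) and library 2 (y axis), both in log2(RPKM + 1), coloured by class. YWHAG lies alone at −3.47 and −4.77, CXCL5 is farthest out among genes higher in both, and IL11 and TGFBR2 lie in the quadrant where the libraries point in opposite directions.

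CXCL5, an ELR+ chemokine that attracts neutrophils through the receptor CXCR2, had the largest difference shared by the 2 knockdown libraries among genes that were higher. It stood at 16.3 and 19.02 RPKM in the scramble libraries and at 126 and 86.2 RPKM in the knockdown libraries, 7.14 and 4.88 times the scramble mean (log2 change 2.50 ± 0.22, limma adjusted p = 0.130). The other expressed ELR+ chemokines of the same cluster on chromosome 4 did not share this pattern. CXCL8 stood at 16.2 and 15.6 RPKM against 14.5 RPKM in library 1 and 4.24 RPKM in library 2. CXCL1 was at 16.2 and 17.0 RPKM against 17.2 and 9.79 RPKM, and CXCL2 at 5.41 and 5.30 RPKM against 8.60 and 2.75 RPKM. CXCL3 stayed between 2.99 and 3.87 RPKM in all 4 libraries, and CXCL6 was at or under 0.0136 RPKM. CXCL8, CXCL1, CXCL2 and CXCL3 each had their lowest value in library 2. For CXCL3 this was by a small margin (2.99 RPKM, against 3.10 RPKM in scramble column 2). CXCL5 too was lower in library 2 than in library 1, but in both it stood above both controls.

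To show what these neighbouring genes share before their start sites, the stretch from 100 to 31 bases before each RefSeq start (GRCh38.p14) is given 5′ to 3′ on the gene's strand. Capitals mark matches to GGNNTTTCC or, on the other strand, GGAAANNCC, letters that fit the binding motif of NF-kB, the transcription factor through which inflammatory signals reach these genes.
CXCL5, chr4:73998708-73998777, minus strand: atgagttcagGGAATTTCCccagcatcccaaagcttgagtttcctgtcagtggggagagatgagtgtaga
CXCL8, chr4:73740469-73740538, plus strand: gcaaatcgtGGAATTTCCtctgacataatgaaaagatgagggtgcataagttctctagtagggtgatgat
CXCL1, chr4:73869293-73869362, plus strand: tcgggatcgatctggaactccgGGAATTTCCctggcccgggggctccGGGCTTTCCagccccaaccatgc
CXCL2, chr4:74099226-74099295, minus strand: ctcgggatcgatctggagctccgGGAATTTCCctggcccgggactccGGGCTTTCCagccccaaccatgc
CXCL3, chr4:74038720-74038789, minus strand: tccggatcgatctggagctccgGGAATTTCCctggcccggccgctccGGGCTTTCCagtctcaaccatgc
CXCL6, chr4:73836578-73836647, plus strand: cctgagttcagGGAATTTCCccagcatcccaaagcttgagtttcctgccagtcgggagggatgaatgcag
All 6 windows hold the same 9-base match, and CXCL1, CXCL2 and CXCL3 hold a second one. Of 35116 RefSeq promoters 540 (1.54%) hold a match in this 70-base window. CXCL5, high in both knockdown libraries, CXCL8, low in library 2, CXCL3, which had no class, and CXCL6, at or near 0, were alike in holding it. A match is a run of letters and not a measured binding site.

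The next genes by shared difference include 4 that act in metabolism. CYCS, cytochrome c of the respiratory chain and of apoptosis, stood at 17.4 and 18.4 RPKM against 60.9 and 49.7 RPKM (log2 change 1.57 ± 0.15). PDHX, the E3-binding subunit of the pyruvate dehydrogenase complex, was at 5.63 and 5.76 RPKM against 17.6 and 21.6 RPKM. Both sets of libraries were apart by more than 2-fold. LCLAT1, an acyltransferase that remodels cardiolipin, was at 1.66 RPKM in both scramble libraries and at 7.29 and 7.50 RPKM in the knockdown libraries. GNPNAT1, an enzyme of UDP-N-acetylglucosamine synthesis, was at 3.18 and 2.92 RPKM against 10.5 and 12.4 RPKM. GNPNAT1, PDHX and SLC35A5 overlap genes on the opposite strand, and since no source here states whether counting used strand, overlapping reads cannot be assigned to 1 gene.

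Regulators in the same class were SETD7, a lysine methyltransferase, at 3.25 and 3.08 RPKM against 15.5 and 12.5 RPKM (log2 change 1.84 ± 0.15), and EFHD2, a calcium-binding protein of the actin cytoskeleton, at 11.9 and 14.5 RPKM against 51.5 and 39.2 RPKM. ANKRD1, a nuclear ankyrin repeat protein and a known target of YAP, stood at 4.34 and 4.02 RPKM against 12.6 and 18.1 RPKM. In these 3 genes each knockdown library was above both controls by more than 2-fold. UBE2V2, a partner of the ubiquitin-conjugating enzyme UBE2N, stood at 3.14 and 3.22 RPKM against 9.93 and 14.6 RPKM, and AKIRIN1, a nuclear protein, at 9.52 and 10.9 RPKM against 28.3 and 33.0 RPKM. RP2, which acts on the small GTPase ARL3, was at 1.65 and 1.58 RPKM against 5.55 and 6.17 RPKM. The class also held 2 adhesion genes from the lists. PTK2, which encodes focal adhesion kinase, stood at 4.93 and 4.63 RPKM against 15.5 and 12.5 RPKM, and CDH1, which encodes E-cadherin, at 4.63 and 4.42 RPKM against 10.9 and 13.5 RPKM.

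Among genes lower in both knockdown libraries, beside YWHAG and SFN, were 2 synthases of extracellular polysaccharides. CHSY1, a chondroitin synthase, stood at 10.6 and 10.9 RPKM against 3.51 and 3.95 RPKM (log2 change −1.32 ± 0.13). HAS3, a hyaluronan synthase, stood at 16.7 and 13.4 RPKM against 5.98 and 2.35 RPKM, with the lower value in library 2 and an overlap with CHTF8 on the opposite strand. ACTL8, an actin-like protein normally found in testis, was at 2.72 and 2.69 RPKM against 0.435 and 0.413 RPKM (log2 change −1.38 ± 0.12). In all 3 the knockdown libraries were below the controls by more than 2-fold.

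TBX3, a T-box transcription factor, stood at 17.1 and 17.5 RPKM against 4.69 and 6.95 RPKM, and BMP4, a ligand of the TGF-beta family, at 32.9 and 35.7 RPKM against 13.8 and 16.4 RPKM. DACT2, which acts on Wnt and TGF-beta signalling, was at 3.21 and 3.82 RPKM against 1.11 and 1.02 RPKM. PTGS2, the inducible cyclooxygenase of prostaglandin synthesis, stood at 90.7 and 80.3 RPKM against 46.2 and 53.7 RPKM, and PTGER2, a receptor for prostaglandin E2, at 3.40 and 3.98 RPKM against 1.04 and 1.25 RPKM. Both the enzyme and the receptor were lower in each knockdown library. DUSP5, a nuclear phosphatase of ERK, stood at 45.8 and 39.9 RPKM against 10.7 RPKM in library 1 and 26.7 RPKM in library 2. APOBEC3B, a cytidine deaminase, was at 8.54 and 7.45 RPKM against 3.22 and 2.91 RPKM, and shares exon sequence with annotated transcripts of APOBEC3A, so its reads may be split. The zinc finger gene ZNF239, the CDC42 effector CDC42SE2 and the membrane protein gene MARVELD1 completed the 12 genes with the largest shared difference, with log2 changes of −1.31, −1.30 and −1.10.

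**Figure D3:**
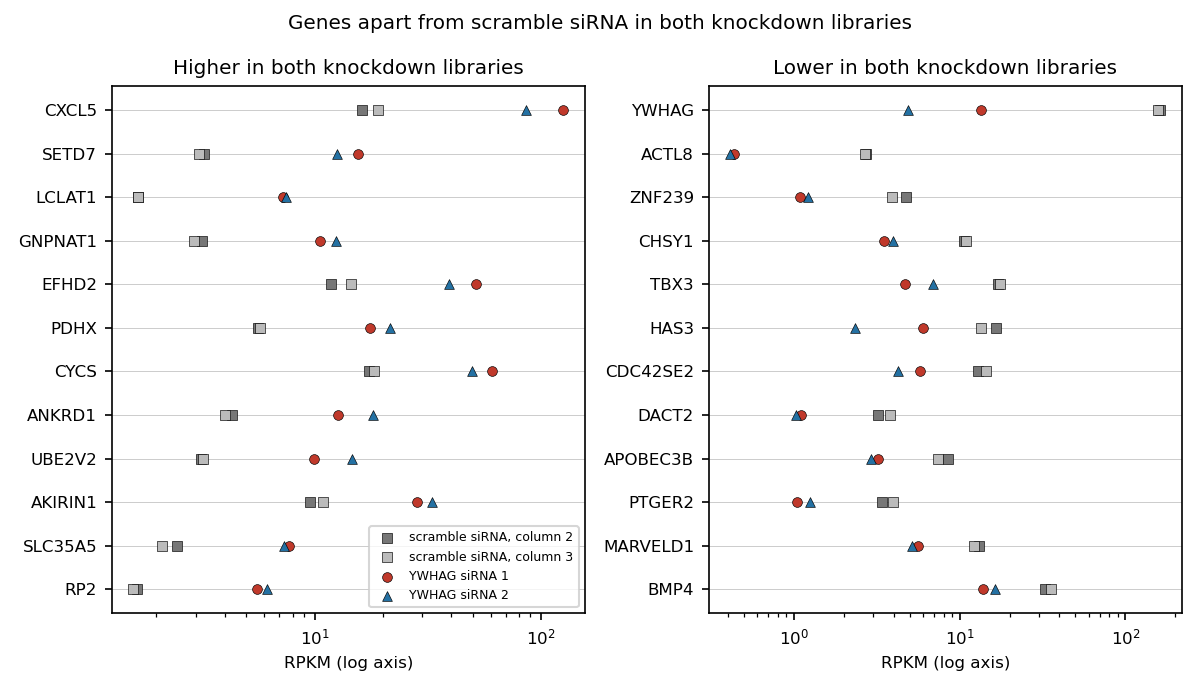
RPKM (log axis) in each of the 4 libraries for the 12 genes with the largest shared difference among those higher in both knockdown libraries (left) and those lower in both (right). In each row the scramble libraries (grey squares) and the knockdown libraries (red circles and blue triangles) do not overlap. The choice of these genes by their difference from the scramble mean favours this.

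With the spread estimated over all 8 libraries, which adds the 4 gapmer libraries and gives 4 residual degrees of freedom, 214 of 12861 genes passed an adjusted p of 0.05 in limma. Of these 140 were higher (1.09%) and 74 were lower (0.575%). This fit and the classes read the same values, and 133 of the 214 were in the class higher in both, 72 in the class lower in both and 9 in no class. YWHAG passed in this fit (adjusted p = 0.0109), as did SETD7 and LCLAT1 (0.00785 each), ACTL8 (0.00803), CXCL5 (0.0341), SFN (0.0457) and BMP4 (0.0457). ANKRD1 (0.0645), HAS3 (0.0540) and PTGS2 (0.324) did not. The gapmer table was normalized separately and used another oligonucleotide, and the fit takes both sets of libraries to vary alike.

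The genes with the largest difference in knockdown library 1 alone were far above the scramble level there and close to it in library 2. SLC2A3, the glucose transporter GLUT3, stood at 21.6 and 22.2 RPKM in the scramble libraries, 172 RPKM in library 1 and 24.1 RPKM in library 2, a ratio between the knockdown libraries of 7.12 (95% counting interval 6.92 to 7.34). IGFBP3, which binds insulin-like growth factors, was at 97.5 and 119 RPKM, then 516 and 104 RPKM. MT2A, a metallothionein of a family with similar copies, was at 13.98 and 17.4 RPKM, then 75.9 and 15.4 RPKM. In these 3 genes library 2 lay within or beside the control values, as the class requires it to lie near their mean. HIST1H4H, a histone H4 gene, stood at 2.64 and 3.25 RPKM, then 18.2 and 3.18 RPKM, and EPHB2, an ephrin receptor, at 2.04 and 2.02 RPKM, then 8.69 and 2.06 RPKM. ABCB10, a mitochondrial transporter, was at 1.68 and 1.75 RPKM, then 7.80 and 1.96 RPKM.

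Low in library 1 alone were MAPK3, which encodes the kinase ERK1, at 5.75 and 6.24 RPKM in the scramble libraries, 0.907 RPKM in library 1 and 5.50 RPKM in library 2, and TPM4, a tropomyosin, at 113 and 102 RPKM, then 32.0 and 117 RPKM. CCND1, which encodes cyclin D1, stood at 74.7 and 76.3 RPKM, then 30.9 and 73.4 RPKM. RHNO1, a partner of the RAD9-HUS1-RAD1 clamp, was at 21.6 and 20.5 RPKM, then 6.01 and 19.2 RPKM, and PSMD5, a chaperone of proteasome assembly, at 23.1 and 20.3 RPKM, then 6.63 and 19.9 RPKM. The knockdown libraries differed by more than 2-fold in each of these 5 genes. FAM69A (13.3 and 13.4, then 3.92 and 13.0 RPKM) and DERL1 (13.5 and 13.6, then 4.03 and 11.7 RPKM) overlap RPL5 and TBC1D31 on the opposite strand. CCND1 overlaps LTO1 and TPM4 a clone locus on the opposite strand, and RHNO1 overlaps TULP3 on the same strand.

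In knockdown library 2 alone, PSAT1, an enzyme of serine synthesis, stood at 168 RPKM, against 57.3 and 60.9 RPKM in the scramble libraries and 60.3 RPKM in library 1. SYP, which encodes the vesicle protein synaptophysin, was at 3.26 RPKM against 0.400, 0.523 and 0.466 RPKM, and RIDA, an imine deaminase, at 20.9 RPKM against 7.07, 10.0 and 9.27 RPKM. C3orf14, BMPR1B-DT and TYMSOS completed the 6 genes with the largest difference, at 4.88, 3.42 and 3.52 RPKM in library 2 and at most 1.40 RPKM elsewhere, and TYMSOS overlaps TYMS and CLUL1. Low in library 2 alone were CUL4A, a cullin of ubiquitin ligases, at 3.44 RPKM against 13.7, 13.4 and 13.3 RPKM, and CXCL8. Also low there were APPL1, an endosomal adaptor, at 1.63 RPKM against 7.50, 6.83 and 7.94 RPKM, and PPIF, the mitochondrial cyclophilin D, at 16.1 RPKM against 49.1, 48.0 and 42.2 RPKM. SNAPC1 and CHORDC1 were at 1.62 and 2.06 RPKM in library 2 and at 6.78 RPKM or more in the other 3 libraries. CUL4A, APPL1 and SYP overlap PCID2, ASB14 and SYP-AS1 on the opposite strand, and SNAPC1 and CHORDC1 each overlap a clone locus.

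Among genes that pointed in opposite directions were a cytokine, a TGF-beta receptor and an inhibitor of the same pathway. IL11, a cytokine of the IL-6 family, stood at 2.94 and 3.37 RPKM in the scramble libraries, 24.6 RPKM in library 1 and 0.843 RPKM in library 2, a ratio between the knockdown libraries of 29.2 (95% counting interval 23.2 to 37.2). TGFBR2, the type II receptor for TGF-beta, stood at 91.6 and 77.9 RPKM, then 167 and 18.6 RPKM. PMEPA1, a feedback inhibitor of TGF-beta signalling, was at 44.3 and 48.1 RPKM, then 97.3 and 20.1 RPKM. In all 3 the scramble mean lay between the knockdown libraries, as the class requires, and PMEPA1 overlaps the antisense gene NKILA. PLEK2, a pleckstrin homology protein of the cortex, was at 3.98 and 3.48 RPKM, then 11.3 and 1.18 RPKM. SOD2, the mitochondrial superoxide dismutase, was at 4.63 and 4.96 RPKM, then 10.4 and 1.46 RPKM, for 1 of 2 annotated genes of that symbol that share exons. The reverse order was seen in DESI2, a deSUMOylating protease, at 6.31 and 7.79 RPKM, then 2.92 and 14.7 RPKM. It was also seen in ID1 and ID3, transcriptional inhibitors induced by BMP signals, with ID1 at 118 and 155 RPKM, then 63.7 and 207 RPKM, and ID3 at 105 and 121 RPKM, then 57.7 and 179 RPKM. The EMT and TGF-beta response list had medians of −0.04 and −0.25 in libraries 1 and 2, against −0.04 and −0.06 over all genes. Of its 28 genes tested 1 was higher in 1 and lower in 2, against 0.302% of all genes. The reverse order held for 2 of the 28, against 0.101% of all genes, so the list did not share the order of IL11, TGFBR2 and PMEPA1. With 1 library per siRNA title, a difference between the knockdown libraries has no replicate check.

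**Figure D4:**
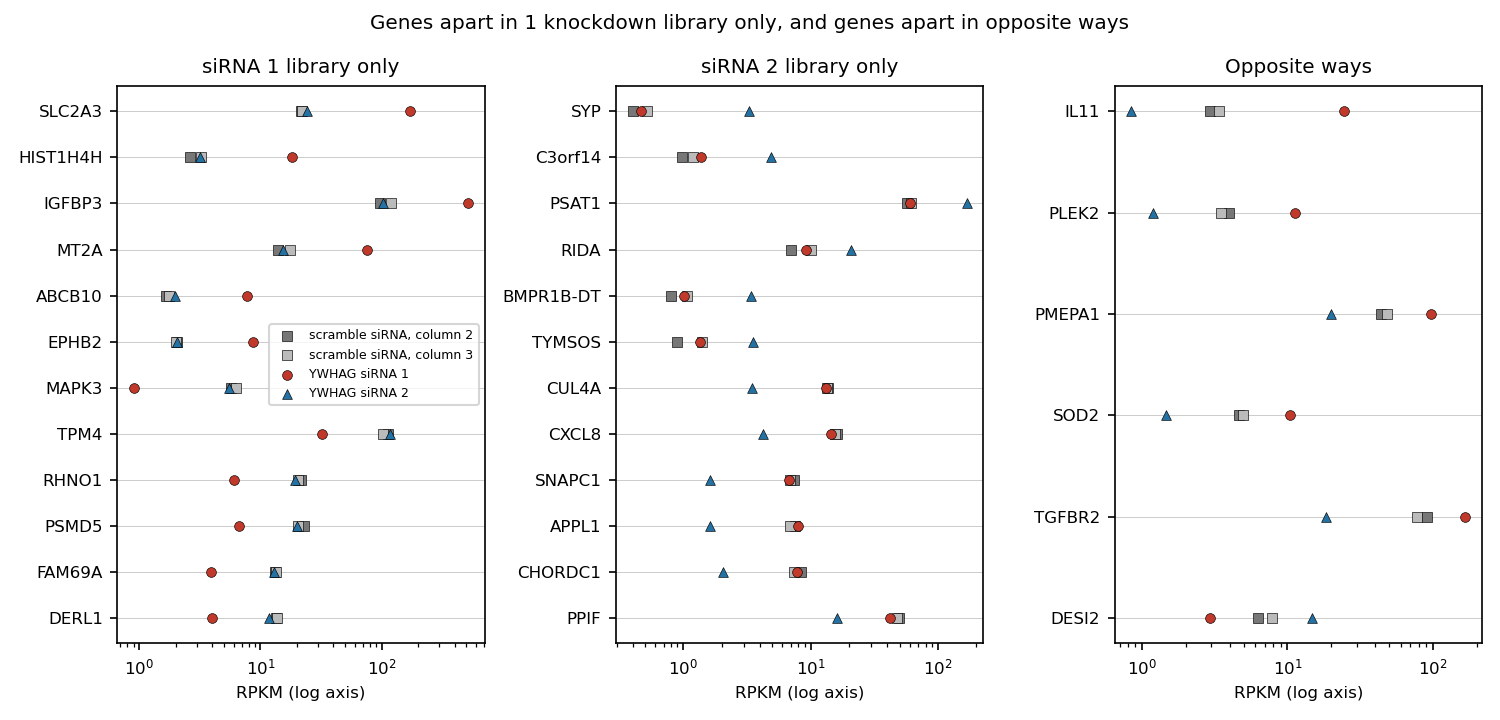
RPKM (log axis) in each library for genes apart in knockdown library 1 alone (left), in library 2 alone (middle) and in opposite directions (right). By the rule of these classes, the other knockdown library lies near the scramble mean in the left and middle panels. In the right panel, also by the rule, the scramble mean lies between the knockdown libraries.

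Among the gene lists, cytosolic ribosomal proteins had nearly equal medians in the 2 knockdown libraries. Of 79 genes 74 were higher, where 42.4% of all genes were, with medians of 0.31 and 0.33 in libraries 1 and 2 against −0.04 and −0.06 over all genes. Both knockdown libraries lay above both controls in 65 of the 79, against 20.4% of all genes. A higher level with an unadjusted p under 0.05 was found for 32 of them, against 7.51% of all genes, but none passed after adjustment in limma. RPL23A, of the large subunit, stood at 105 and 107 RPKM in the scramble libraries against 171 and 171 RPKM in the knockdown libraries. RPL24 and RPL22 were among the 5 with a negative change, at −0.19 and −0.17. Ribosomal protein genes have many processed pseudogenes, and how reads shared with them were counted is not given. Mitochondrial ribosomal proteins had medians of −0.10 and 0.06 in the 2 libraries, with 34 of 71 higher.

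Most genes of the mitosis lists lay below the scramble level by small amounts that did not pass the test, and 8008 of all 13903 genes were lower too. In the spindle and cytokinesis list 28 of 30 genes were lower, with medians of −0.27 and −0.30, and 24 of the 30 had both knockdown libraries below both controls, as did 30.8% of all genes. Of 33 G2/M regulators and condensation genes 29 were lower (medians −0.31 and −0.19), and of 19 genes of the spindle checkpoint and chromosomal passenger complex 15 were lower (−0.32 and −0.15). Of 36 kinetochore genes 29 were lower. Their median was −0.27 in library 1 and, close to that of all genes, −0.07 in library 2. In library 2, 16 of the 36 were above the scramble mean, as were 42.5% of all genes. No gene in these lists passed the test in limma. In library 1 alone 4 kinetochore, 2 checkpoint and passenger, 2 G2/M and 0 spindle genes were low, where 1.99% of all genes were. In each of these lists 0 genes were high there alone, against 1.8% of all genes. SPC24, among these kinetochore genes, stood at 5.40 and 5.64 RPKM, then 2.25 RPKM in library 1 and 6.02 RPKM in library 2. ANLN, the scaffold anillin of the cleavage furrow, was at 49.8 and 41.6 RPKM, then 45.6 RPKM in library 1 and 29.5 RPKM in library 2. CENPF, a kinetochore and nuclear matrix protein, was in the class lower in both, at 34.0 and 27.7 RPKM against 20.0 and 17.1 RPKM. SKA2, a kinetochore protein, was in the class higher in both, at 13.5 and 13.96 RPKM against 28.9 and 22.6 RPKM. DNA replication genes differed between the libraries, with a median of −0.40 in library 1 and 0.04 in library 2. Of 52 replication genes 8 were low in library 1 alone, against 1.99% of all genes. Among them were the helicase subunit CDC45 (9.45 and 9.23, then 5.46 and 9.61 RPKM) and the origin protein ORC1 (12.6 and 10.6, then 6.76 and 12.6 RPKM). CCNE2, which encodes cyclin E2, was low in both.

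Interferon and NF-kB target lists pointed in opposite directions in the 2 knockdown libraries. The interferon list had medians of 0.38 in library 1 and −0.58 in library 2, with 21 of 28 genes above the scramble mean in library 1 and 2 of 28 in library 2. Over all genes these shares were 45.2% and 42.5%. IFIT1, an interferon-induced RNA-binding protein, stood at 1.19 and 1.14 RPKM, then 3.12 and 0.270 RPKM. DDX58, which encodes the RNA sensor RIG-I, was at 3.08 and 2.80 RPKM, then 8.23 and 1.30 RPKM. These and 4 other genes of the list, IFIT3, ISG15, PARP9 and DTX3L, were in the class higher in 1 and lower in 2, which held 0.302% of all genes. OAS1 was high in library 2 alone (11.3 and 9.68, then 10.9 and 17.0 RPKM). The NF-kB list had medians of 0.26 and −0.55, with CCL2, a monocyte chemokine, at 9.80 and 8.63 RPKM, then 15.1 and 5.30 RPKM, and the adhesion receptor ICAM1 at 1.61 and 1.72 RPKM, then 1.44 and 0.304 RPKM.

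Lists of hypoxia and glycolysis, of extracellular matrix and integrins, and of YAP and TEAD targets were high in library 1 and near 0 in library 2. Hypoxia and glycolysis genes had medians of 0.52 and 0.02, with PGK1, a glycolytic kinase, at 186 and 193 RPKM, then 322 and 206 RPKM. Collagens, laminins and integrins had medians of 0.60 and 0.03, with the laminin receptor subunit ITGB4 at 23.8 and 26.5 RPKM, then 63.5 and 25.4 RPKM. YAP and TEAD targets had medians of 0.31 and −0.09, and 5 of 22 were high in library 1 alone, against 1.8% of all genes. Among them was the matricellular gene CYR61 (13.3 and 13.4, then 26.4 and 11.7 RPKM). Replication-dependent histones had medians of 0.69 and −0.12 over 11 genes of a family with near-identical copies. NRF2 targets had a median under the scramble level in library 1, with medians of −0.32 and 0.02. GCLM, a subunit of the enzyme of glutathione synthesis, was at 40.5 and 39.6 RPKM, then 18.96 and 40.3 RPKM. Of the 32 NRF2 targets 10 were higher, where 42.4% of all genes were. Among these 10 was SLC7A11, which was in the class higher in both.

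The integrated stress response list was high in library 2, with medians of 0.01 and 0.27, and 6 of 40 genes were high there alone, against 0.784% of all genes. ATF4, the transcription factor of this response, stood at 98.2 and 87.7 RPKM, then 87.4 and 179 RPKM. MTHFD2, an enzyme of mitochondrial folate metabolism, was at 34.4 and 35.2 RPKM, then 30.6 and 57.1 RPKM. PSAT1, PCK2, SESN2 and AARS were the other 4, whereas PSPH, the phosphatase that acts after PSAT1 in serine synthesis, was low in library 2 (12.3 and 12.3, then 14.01 and 5.97 RPKM). In library 1 alone 1 of the 40 was high, against 1.8% of all genes, and 1 was low, against 1.99%. The high one was PPP1R15A (11.7 and 12.2, then 26.0 and 12.4 RPKM). Another 3 of the 40 genes were high in both libraries, as were 1.65% of all genes. These were STC2, a secreted glycoprotein (5.89 and 6.21 against 22.7 and 13.7 RPKM), VLDLR, a lipoprotein receptor (3.15 and 3.05 against 8.25 and 7.12 RPKM), and SLC7A11, the cystine transporter (16.3 and 15.6 against 27.3 and 31.3 RPKM). VLDLR and SLC7A11 each overlap an antisense gene, as do CDH1 and ICAM1, and CCNE2 overlaps INTS8.

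Known clients of 14-3-3 proteins had medians of −0.07 and −0.19 in libraries 1 and 2. Of 43 client genes 31 were lower, against 8008 of all 13903, and 0 were in a both-libraries class, which held 1.65% (higher) and 1.39% (lower) of all genes. CDC25A, a phosphatase of cell cycle entry, stood at 11.2 and 10.1 RPKM, then 6.22 and 10.9 RPKM, and the kinase WEE1 at 5.85 and 5.56 RPKM, then 5.69 and 3.38 RPKM, so each was low in a different library. The FOXO targets had medians of 0.03 and −0.34, and BCL2L11, which encodes the apoptosis activator BIM, was low in both libraries at 6.18 and 5.54 RPKM against 3.13 and 2.49 RPKM, with an overlap with MIR4435-2HG. Of 32 p53 targets 21 were higher (medians 0.06 and 0.23), where 42.4% of all genes were. PMAIP1, which encodes the apoptosis activator NOXA, was high in both at 1.43 and 1.66 RPKM against 3.04 and 3.33 RPKM. The other 11 of the 32 were lower. Among these GDF15 was low in library 1 alone (33.5 and 41.7, then 16.7 and 41.3 RPKM). SFN, a p53 target that was lower in both libraries, was not in this list. Of 8 neuronal markers tested 4 were above the scramble mean in library 1 and 5 in library 2 (medians −0.02 and 0.27), against 45.2% and 42.5% of all genes. Among them SNAP25, a fusion protein of vesicles, stood at 9.83 and 11.6 RPKM, then 5.56 and 31.2 RPKM, while STMN2 and GAP43, not tested, were at 0 in all 4 libraries.

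**Figure D5:**
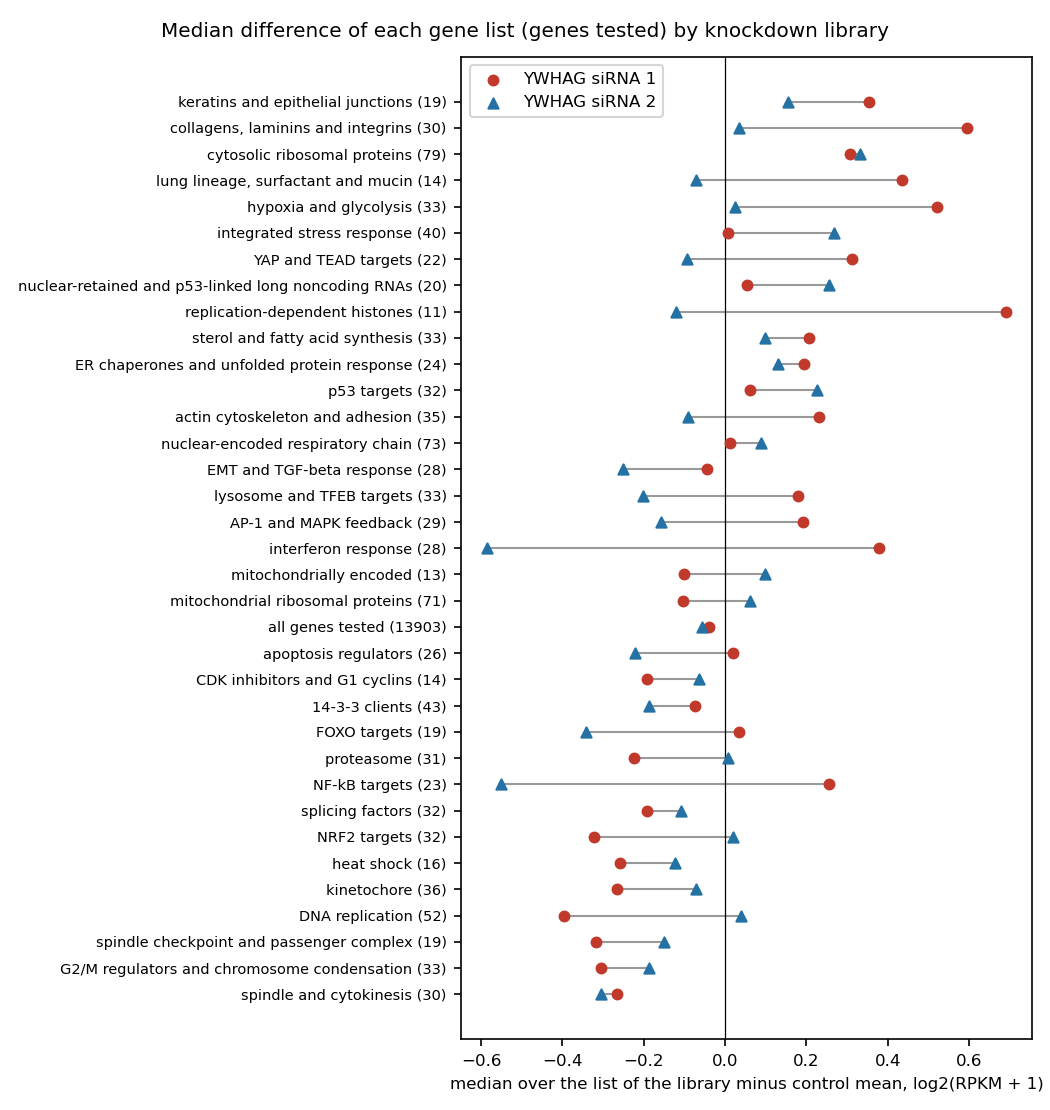
Median difference from the scramble mean, in log2(RPKM + 1), of each gene list in knockdown library 1 (red circles) and library 2 (blue triangles), with the number of genes tested in parentheses. Cytosolic ribosomal proteins and spindle genes have nearly equal medians in the 2 libraries, and the interferon, NF-kB and histone lists have medians of opposite sign.

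Of features that the rule did not use, gene type and GC content were counted for each class. Small RNA genes made up 35 of the 193 genes lower in both (18.1%), against 2.57% of all genes tested and 2.62% of those higher in both. Their share was also above that of all genes among those high (7.34%) and low (6.51%) in library 2 alone. In library 1 alone it was 4.35% of the low and 2.4% of the high genes. Protein-coding genes were 58.7% of those high in library 2 alone, against 81.4% of all. The median transcript GC content was 43.0% for genes higher in both and 47.9% for all genes. With the GC trend of each library removed, 221 of the 229 genes higher in both and 129 of the 193 lower in both stayed in their class. The part of transcript length in these classes was not tested.

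The gapmer libraries share no control with the siRNA libraries. In them, genes of the library 1 classes lay beyond the controls in their own direction more often than all genes did. Both LY6K-AS knockdown libraries lay above both gapmer controls in 30.1% of the 12861 genes tested in both tables and below them in 33.3%. Of genes high in YWHAG knockdown library 1 alone 106 of 240 (44.2%) lay above, and of those low in it alone 151 of 257 (58.8%) lay below. Of the genes higher in both YWHAG knockdown libraries 56 of 213 (26.3%) lay above and 69 (32.4%) below. Of those lower in both 49 of 171 (28.7%) lay below and 46 (26.9%) above. Of the 37 genes higher in library 1 and lower in library 2, 18 (48.6%) lay above and 4 (10.8%) below. These are counts over genes, which are not independent of each other, and no test was made of the shares.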

How the data were processed

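RNA-seq of 8 A549 libraries was deposited as RPKM in 2 tables, 1 per oligonucleotide chemistry, and the 4 siRNA libraries are the comparison here. The RPKM values were made by the authors. Per the submitters' processing notes, the tools were STAR, featureCounts, Subread and Picard and the build hg38, without versions or roles. In the siRNA table, RPKM times the merged exon length in GENCODE 29 gave whole reads within 0.05 for 100% of values in genes with an unchanged identifier version, so these values are per kilobase of exon. In the gapmer table the same held for 100% of values with gene end minus start as length, so it is per kilobase of gene span and was rescaled to exon length. Of 66206 identifiers 57055 matched GENCODE 29, which gave the symbols. Scramble columns, numbered 2 and 3 in the table and 1 and 2 in the labels, were assigned to their group only.

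Knockdown was compared with scramble on log2(RPKM + 1) by limma 3.58.1 under R 4.3.3, with trended variance, two-sided, with Benjamini-Hochberg adjustment at 0.05; this scale understates changes of low genes. No gene list was tested as a set. The code was tested on simulated data. Intervals on ratios between 2 libraries are exact binomial 95% intervals. Reads recovered in genes with unchanged identifiers came to 28.3 to 28.9 M (1e6) per library. Promoters are from RefSeq, GRCh38.p14.

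Genes named are the 14-3-3 genes, the 12 with the largest shared difference per both-libraries class, the 6 with the largest difference per 1-library class and in the opposite class, each at 2 RPKM or more and without pseudogenes, clone loci or small RNAs, and from each of 39 lists up to 4 members in a both-libraries or 1-library class, or otherwise the 2 with the smallest p. Not every gene so selected is reported here. Other genes named from a list or beside a named gene were chosen after their values were seen. The genes described and the lists were chosen with earlier results of these data known. Alternatives were the pseudocount, filter, scaling, GC correction, voom on whole reads, spread pooled over 8 libraries, single controls, fold, and leaving out each library.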

Additional observations from a re-analysis of the deposited data

How the results depend on the processing

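No paired analysis was possible because the scramble columns are numbered 2 and 3 in the table and 1 and 2 in the labels, so no number ties a scramble to a knockdown library. The count of genes past the threshold was 0 in the main fit and in 11 of 12 alternatives, with 488 to 4839 genes at an unadjusted p under 0.05 when 1 library was left out. With the spread pooled over all 8 libraries it was 214, of which 140 were higher and 74 lower. In the fits that leave out 1 library, the lone library of a group is assumed to vary like the others. With a pseudocount of 0.1 the classes held 582 genes higher in both, 501 lower in both, 447 low in library 1 alone, 374 low in library 2 alone and 234 opposite, and with 0.5 they held 348 higher in both, 300 lower in both and 108 opposite. A fold of 2 left 52 higher in both, 23 lower in both, 60 high and 58 low in library 1 alone, 11 high and 37 low in library 2 alone and 3 opposite. With the other library held within 0.1, the 1-library classes held 127 high and 128 low in library 1 and 56 high and 105 low in library 2. When knockdown libraries 1 and 2 were each given 1 control of their own, the opposite class held 90 genes in 1 assignment and 96 in the other, and 172 genes were high in library 2 alone in the latter. Leaving out scramble column 2 or 3 gave 246 or 305 genes higher in both and 183 or 253 lower in both. The log2 change of YWHAB turned to 0.0161 with the GC trend removed and to 0.0166 with median-ratio scaling. That of YWHAH ran from −0.460 without knockdown library 1 to 0.0424 without library 2. No other log2 change turned sign among those recomputed, which cover the 14-3-3 genes, most genes named from the both-libraries classes and, for the other classes, the difference in each library. The change over both libraries of genes that differ between them, such as IL11, TGFBR2, PMEPA1 and CXCL1, turns sign when 1 knockdown library is left out, as their values per library show. The causes were not tested.

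The medians of the interferon and the AP-1 and MAPK feedback lists over both libraries changed sign with median-ratio scaling, as did those of the mitochondrial ribosomal and mitochondrially encoded lists. The cytosolic ribosomal median ran from 0.28 to 0.40 and the spindle median from −0.39 to −0.19 over all 13 settings.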
